A study of Mus musculus with 18 samples.

Results

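The genes described here encode the CD200 receptors of the mouse: Cd200r1, Cd200r2 and Cd200r4, 3 of the 46078 genes in the deposited count table. They were taken by gene symbol and chosen by measured values, because Cd200r2 had no counts in control natural killer (NK) cells and low values in RARα403 spleen type 1 innate lymphoid cells (ILC1s). Those values are therefore given below as descriptions, without a test. All 3 genes passed the filter on low counts, Cd200r1 and Cd200r2 through the ILC1 groups alone. The libraries came from ILC1s of liver and spleen and from NK cells of the liver of C57BL/6 mice aged 8 weeks. Control mice carried Ncr1-Cre, in which the gene of the receptor NKp46 drives Cre recombinase, and the other mice carried Ncr1-Cre together with Rosa26-RARα403. RARα403, a shortened form of the retinoic acid receptor α, acts as a dominant negative. NKp46 is found on both cell types, and Cre was present in both genotypes. Each of the 6 groups had 3 libraries, made with a SMART-seq kit from 200 sorted cells each. ILC1s had been sorted as NK1.1+ NKp46+ CD3- cells with CD49a, little CD49b and the interleukin-7 receptor, and NK cells as such cells with CD49b and without CD49a. The labels do not say whether libraries came from separate animals, so p-values here reflect only how much libraries differ, which may be technical. They also give neither the number of copies of the Rosa26 allele nor the purity of the sort.

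CD200 is a membrane protein of many cell types whose receptors sit on leukocytes. CD200R1 has a long cytoplasmic tail that recruits the adaptors Dok2 and Dok1, which bring in the Ras GTPase-activating protein RasGAP and dampen activation. CD200R2, CD200R3 and CD200R4 have short tails, pair with the adaptor DAP12 and are counted as activating receptors, and whether they bind CD200 has been reported differently. The protein CD200R1 is used in flow cytometry to tell ILC1s from NK cells in the mouse liver.

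The 3 genes are protein coding, lie on the plus strand of chromosome 16 and are neighbours in one cluster (mm10, GENCODE annotation). Cd200r1 (ENSMUSG00000022667) spans chr16:44765736-44794978, Cd200r4 (ENSMUSG00000062082) spans chr16:44811733-44839150, and Cd200r2 (ENSMUSG00000090176) spans chr16:44867097-44915840. Cd200r3 follows at chr16:44943678-44981380. A processed pseudogene, Gm17928, lies inside Cd200r2 on the same strand, and their exons do not overlap. The coding transcripts of the members shared few stretches of 50 bases: 2.17% of those of Cd200r1 and 3.59% of those of Cd200r2 also occurred in Cd200r4, and Cd200r1 and Cd200r2 shared 0. Reads from such stretches could have been counted for the wrong member or dropped, and how reads with several alignments were treated is not stated in the sources.

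The 250 bases before the RefSeq start (GRCm38.p6, plus strand) are printed because Cd200r2 and Cd200r4 had the most unlike values of the family. Cd200r2, Cd200r4 and Cd200r3 matched the RefSeq table by symbol and Cd200r1 did not. The window of Cd200r2 is chr16:44866847-44867096, that of Cd200r4 is chr16:44820478-44820727 and that of Cd200r3 is chr16:44943428-44943677. The Cd200r4 window lies before a shorter transcript, downstream of the GENCODE start of that gene. In Cd200r2 the capitals mark matches to the searched motifs, and in Cd200r4 and Cd200r3 they mark the stretch over which those windows align with each other.
Cd200r2: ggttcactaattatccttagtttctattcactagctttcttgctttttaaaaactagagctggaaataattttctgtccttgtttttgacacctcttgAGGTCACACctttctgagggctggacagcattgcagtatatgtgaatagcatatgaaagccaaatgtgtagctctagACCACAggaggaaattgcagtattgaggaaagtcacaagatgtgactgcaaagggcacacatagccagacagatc
Cd200r4: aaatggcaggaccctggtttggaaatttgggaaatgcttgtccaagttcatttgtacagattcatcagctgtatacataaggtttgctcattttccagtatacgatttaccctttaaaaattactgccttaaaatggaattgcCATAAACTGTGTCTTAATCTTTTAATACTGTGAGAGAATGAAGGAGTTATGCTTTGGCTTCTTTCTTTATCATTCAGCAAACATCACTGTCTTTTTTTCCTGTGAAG
Cd200r3: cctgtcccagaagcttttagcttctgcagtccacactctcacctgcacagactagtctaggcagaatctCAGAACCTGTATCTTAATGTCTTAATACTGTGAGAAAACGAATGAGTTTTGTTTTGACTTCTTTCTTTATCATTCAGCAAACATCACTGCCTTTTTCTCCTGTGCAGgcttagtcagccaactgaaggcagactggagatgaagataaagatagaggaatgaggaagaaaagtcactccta
The motifs were searched on both strands: AGGTCA (the element bound by 1 unit of a retinoic acid receptor dimer), TCACAC (a T-box core), TGTGGT (a RUNX core) and GGAAGT (an ETS core). Cd200r2 held AGGTCA on the plus strand from base -152, counted back from the start, and TCACAC on the plus strand from base -149, so that the matches overlap by some bases. It also held TGTGGT on the minus strand, printed as its reverse complement ACCACA, from base -75. Among all 32851 RefSeq windows of this length, 14.02% held AGGTCA, 12.3% held TCACAC, 14.05% held TGTGGT and 19.7% held GGAAGT. None of these letters occurred in the windows of Cd200r4 and Cd200r3, and GGAAGT did not occur in that of Cd200r2. The Cd200r4 and Cd200r3 windows were alike over 107 aligned bases, of which 93 (86.9%) were identical, whereas Cd200r2 aligned with Cd200r4 over 23 bases.

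The libraries held 3452279 to 9038767 counts. Levels are given as CPM, the counts scaled to library size with TMM factors. The limit set by 3 counts, which stands in for a gene without any, was 0.334 to 0.860 CPM, and it covers counting error only. The summed level of 6 ILC1 genes was 1281 to 2861 CPM in the ILC1 libraries and 98.0 to 459.5 in the NK libraries, and that of 6 NK genes was 88.7 to 1032 and 2770 to 3922. Liver NK RARα403 library 1 stood apart, with 192 of 2735 genes that exceeded 50 CPM in all other libraries at 3 counts or fewer there, against 0 such genes in each of the other 17. That library also had 798 counts of Itga1, which encodes CD49a, against 0 to 43 in the other NK libraries. Gt(ROSA)26Sor, the noncoding transcript of the Rosa26 locus, ranged from 104 to 1260 counts in control libraries and stayed at 10 or fewer in RARα403 libraries 2 and 3. RARα403 library 1 had 0 counts of it in NK cells but counts within the control range in both ILC1 populations, 365 of them in the spleen, so "RARα403" below means the library's label. Xist, expressed from the inactive X chromosome of females, had 596 to 1404 counts in 6 libraries, namely control library 3 and RARα403 library 2 of every population. The remaining 12 had 28 or fewer.

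Cd200r1, the inhibitory receptor, was an ILC1 transcript in these libraries. Control liver ILC1s had 161, 126 and 367 CPM in libraries 1, 2 and 3, and RARα403 liver ILC1s had 30.4, 207 and 83.0. Control spleen ILC1s had 242, 48.8 and 82.2 CPM, and RARα403 spleen ILC1s had 65.7, 42.6 and 10.8. Of the NK libraries, 5 had 0 counts, and control NK library 2 had 37 counts (4.11 CPM). Thus each ILC1 library lay above every NK library, while the ILC1 groups overlapped one another in part.

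That control NK library also had the most counts of Itga1 in its group, at 37 against 0 and 10, whereas RARα403 NK library 1, with 798, had 0 of Cd200r1. Ordered by mean log2 CPM (SD, n = 3), Cd200r1 stood at 7.61 ± 0.80 in control liver ILC1s, 6.63 ± 1.17 in control spleen ILC1s, 6.34 ± 1.38 in RARα403 liver ILC1s and 4.98 ± 1.34 in RARα403 spleen ILC1s. Neighbours in that order differed by less than the larger of their SDs. The NK groups closed the order at -0.42 ± 2.22 in control cells and at the value of a gene without counts, -1.70, in RARα403 cells.

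Cd200r2, an activating receptor, had 0 counts in all 6 NK libraries, where the floor of 3 counts allows up to 0.334 to 0.733 CPM. Control liver ILC1s had 150, 106 and 266 CPM, and RARα403 liver ILC1s had 11.8, 154 and 63.0. Control spleen ILC1s had 146, 42.7 and 44.4 CPM. RARα403 spleen ILC1s had 0 counts in library 1, 29 counts (4.75 CPM) in library 2 and 3 counts (0.389 CPM) in library 3. The RARα403 spleen libraries were thus the only ILC1 libraries to lie beneath the lowest of the other 9, at 11.8 CPM.

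In mean log2 CPM (SD, n = 3), Cd200r2 ran from 7.34 ± 0.67 in control liver ILC1s through 6.03 ± 1.00 in control spleen ILC1s and 5.62 ± 1.86 in RARα403 liver ILC1s to 0.04 ± 2.08 in RARα403 spleen ILC1s. The first step exceeded both SDs although libraries overlapped, the second lay within them, and at the last the libraries did not overlap. Both NK groups stood at -1.70. The ILC1 groups had the same order as for Cd200r1.

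Cd200r4, also an activating receptor, was present in every library of both cell types. Liver ILC1s had 186, 150 and 280 CPM in control and 117, 138 and 84.0 in RARα403 cells. Liver NK cells had 109, 99.1 and 162 CPM in control and 129, 111 and 73.6 in RARα403 cells. Spleen ILC1s had 129, 93.5 and 107 CPM in control and 150, 83.1 and 62.8 in RARα403 cells. Of the group means of 6.53 to 7.63 log2 CPM, that of control liver ILC1s was the highest. The 18 libraries ran from 62.8 to 280 CPM, and the 5 groups other than control liver ILC1s overlapped one another.

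**Figure D1:**
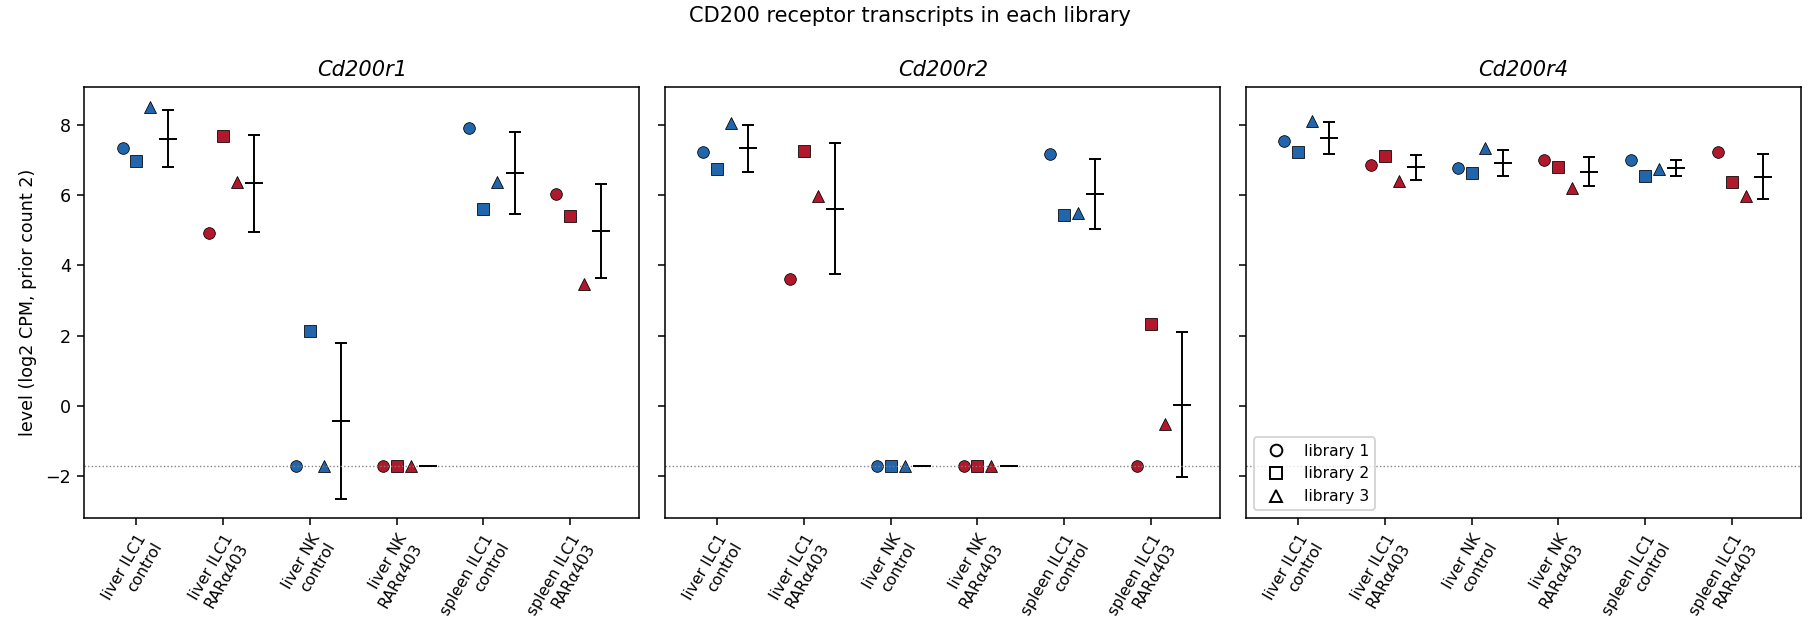
Level of Cd200r1, Cd200r2 and Cd200r4 in log2 CPM (prior count 2) in each of 18 libraries, by group, with circles, squares and triangles for libraries 1, 2 and 3 and bars for the group mean and SD. The dotted line is a gene without counts. Cd200r1 and Cd200r2 are high in ILC1s and at or near that line in NK cells, Cd200r2 is near it in RARα403 spleen ILC1s as well, and Cd200r4 lies within a narrow band in all groups.

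The difference between cell types was described in control cells and tested in RARα403 cells, whose liver libraries the choice of genes had not used. The spread in that test came from all libraries, those used in the choice included. Cd200r2 had also been chosen for having no counts in NK cells of the other genotype. The p-values are therefore not independent of the choice. In control cells, mean Cd200r1 was 159-fold higher in liver ILC1s than in NK cells. Without control NK library 2 it was at least 438-fold higher, without control liver ILC1 library 3 it was 105-fold higher, and without control NK library 1 or 3 it was 106-fold higher. Cd200r2 was at least 393-fold higher, and Cd200r4 was 1.67-fold higher with overlapping libraries. Control spleen ILC1s stood 90.6-fold above the same NK libraries for Cd200r1 and at least 175-fold above them for Cd200r2, while Cd200r4 overlapped. Without control spleen library 1 these values were 47.8-fold and at least 98.3-fold, and Cd200r1 was at least 249.5-fold higher without control NK library 2 and 60.4-fold higher without control NK library 1 or 3. In all, 0.605% of the 14714 genes tested by edgeR were called between control liver ILC1s and NK cells. Higher in ILC1s with no overlap were 8.71% of genes, as were 2 of the 3 members. The members are not read against that share, since the choice of genes had used the Cd200r2 counts of control NK cells.

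In RARα403 cells both Cd200r1 and Cd200r2 were higher in liver ILC1s than in NK cells and passed the test fitted to all libraries. Cd200r1 was at least 204-fold higher (edgeR quasi-likelihood test, adjusted p = 0.0210) and Cd200r2 at least 146-fold higher (adjusted p = 0.0306), with the 3 ILC1 libraries above the 3 NK libraries for both. With DESeq2 the adjusted p-values were 9.54e-10 and 7.60e-09. Among all genes, edgeR called 0.347% higher (0.401% in both directions), DESeq2 called 1.86% higher, and 7.58% were higher without overlap. The number of members called is not read against these shares, since both members passed the filter on low counts through ILC1 groups, control liver ILC1s (371 counts or more per library) among them, and had no counts in the RARα403 NK libraries. Cd200r4 differed by 0.12 on the log2 scale (SE 0.37, adjusted p = 0.947), and its libraries overlapped.

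The edgeR calls of Cd200r1 and Cd200r2 were lost without RARα403 liver ILC1 library 2, which held the most of both transcripts (adjusted p = 0.0636 and 0.0951), and that of Cd200r2 also without library 3 (0.0724). Without that library 2 the lower bounds were 108-fold and 71.6-fold. Both calls were also lost with limma-voom (0.113 and 0.0898) and in a fit of only those 6 libraries (0.634 for both). The replicate number as a block ended both as well, with values given in the closing section. The Cd200r2 call was also lost with the leading code number of the descriptions as a term (0.0524). That code number sets library 1 of every group apart from libraries 2 and 3. Over all alternatives the adjusted p ran from 2.7e-32 to 0.634 for Cd200r1, with 12 of 16 past the threshold. For Cd200r2 it ran from 4.0e-25 to 0.634, with 10 of 16. Among the 16, the fit without liver NK RARα403 library 1 is counted both by itself and in the series of single libraries left out. They also hold a term for high Xist counts, chosen after seeing the data. The adjusted p-values were 0.0227 and 0.0395 with liver NK RARα403 library 1 left out and 0.0158 and 0.0117 with libraries 2 and 3 alone, where the lower bounds were 347-fold and 259.6-fold.

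Markers of other cells moved with the cell type as well. The 6 T cell genes of the marker list summed to 180 to 636 CPM in the ILC1 libraries and 9.35 to 36.4 in the NK libraries, with Cd3g at 369 to 2763 and 0 to 125 counts. The 6 genes of basophils and mast cells summed to 77.9 to 235 and 21.7 to 90.7 CPM, mostly Kit, with Fcer1a at 0 counts in every ILC1 library and Mcpt8 at up to 17. The 5 genes of type 2 innate lymphoid cells summed to 231 to 390 CPM in the ILC1 libraries and 51.3 to 202 in the NK libraries, with no overlap, while Il1rl1, one of them, had 0 to 82 and 0 to 59 counts. The 10 macrophage and monocyte genes overlapped, at 51.4 to 903 CPM in ILC1s and 67.2 to 664 in NK cells. Of the 10, 5 to 9 were at 0 counts in each NK library and 1 to 8 in each ILC1 library. In control liver ILC1 library 3, which had the most Cd200r1 and Cd200r2 of all libraries, the 10 genes summed to 51.4 CPM, with 8 of them at 0. The part of these transcripts in the difference was not tested. In bulk samples, fewer cells of a type and less RNA per cell cannot be told apart.

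RARα403 was then compared with control in each population. In liver ILC1s the mean of each member was lower with RARα403, and none passed the test. The log2 fold changes were -1.03 (SE 1.08) for Cd200r1, -1.19 (SE 1.08) for Cd200r2 and -0.86 (SE 0.37) for Cd200r4, each with an adjusted p of 1 by edgeR. For Cd200r4 the 3 RARα403 libraries lay below the 3 control libraries (unadjusted p = 0.0329), as 4.43% of all tested genes did, and Cd200r1 and Cd200r2 overlapped. No gene of the 14714 (0%) was called here by edgeR, with 432 at an unadjusted p under 0.05, while DESeq2 called 33 genes and limma-voom 0. None of the 3 members passed the threshold under any of the 16 alternatives.

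The spread of Cd200r1 and Cd200r2 within RARα403 liver ILC1s went with 1 library at each end. Library 1, the lowest, had 1032 CPM of the summed NK markers, against 148 and 156 in libraries 2 and 3 and 88.7 to 138 in control. It was also the liver ILC1 library labelled RARα403 with Rosa26 counts in the control range. Library 2, the highest, was the Xist-positive library of its group, and so was control library 3, the highest of the controls. In spleen ILC1s the Xist-positive libraries were not the highest, with 42.6 to 82.2 CPM of Cd200r1 against 10.8 to 242 in the others and 4.75 to 44.4 CPM of Cd200r2 against 0 to 146. Without RARα403 library 1 the log2 fold changes of Cd200r1 and Cd200r2 were -0.59 and -0.68, without RARα403 library 2 they were -1.94 and -2.22, and without control library 3 they were -0.43 and -0.75. With Xist as a term, chosen after seeing the data, they were -1.06 and -1.45, with adjusted p of 1. The part of NK transcripts in the values of library 1 was not tested.

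In liver NK cells Cd200r1 had 0 counts in all 3 RARα403 libraries, against 0, 37 and 0 in control, so the difference rested on control library 2. Its fold, at least 2.62-fold lower, did not pass (edgeR adjusted p = 0.449), and without that library both groups were at 0. Cd200r4 differed by -0.24 (SE 0.37, adjusted p = 0.894), and its libraries overlapped. Of all genes 0% were called by edgeR in NK cells (1418 at an unadjusted p under 0.05), whereas DESeq2 called 153 and limma-voom 0. The RARα403 effect did not pass a test of its difference between liver ILC1s and NK cells for Cd200r4 (log2 difference -0.62, SE 0.52, adjusted p = 0.945), nor for Cd200r1 (5.25, SE 2.78, adjusted p = 0.819), whose difference was -1.03 without control NK library 2.

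In spleen ILC1s the choice of genes had used the RARα403 values, so the difference is described only. Mean Cd200r2 was 45.3-fold lower with RARα403, and the highest RARα403 library, at 4.75 CPM, lay below the lowest control library, at 42.7 CPM. Mean Cd200r1 was 3.13-fold lower and mean Cd200r4 1.11-fold lower, both with overlapping libraries, and the sign for Cd200r4 turned when single libraries were left out (log2 ratio -0.59 to 0.09). Without overlap, 4.87% of all tested genes were lower in this comparison, and edgeR called 0% (425 at an unadjusted p under 0.05, 20 genes called by DESeq2, 0 by limma-voom).

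The size of the Cd200r2 fold depended on single libraries. It was 25.4-fold without control library 1, the highest control, 399-fold without RARα403 library 2, 30.2-fold without RARα403 library 1, and 16.9-fold with libraries 2 and 3 of both groups. For Cd200r1 the fold was 1.65 without control library 1 and 4.65 without RARα403 library 1. RARα403 library 1, with Rosa26 counts in the control range, had 0 Cd200r2 counts beside 425 of Cd200r1 and 971 of Cd200r4. The summed ILC1 markers were 1281 to 2256 CPM in control and 1811 to 2320 in RARα403 spleen ILC1s. The NK markers, at 131 to 876 and 349 to 830 CPM, overlapped as well, and control library 2, with the most NK marker transcripts of the 6, had 42.7 CPM of Cd200r2. The summed macrophage and monocyte genes, at 198 to 788 and 339 to 866 CPM, and the 4 B cell genes, at 18.6 to 1335 and 22.4 to 241 CPM, also overlapped between control and RARα403, and the part of any of these in the difference was not tested.

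The same gap appeared between RARα403 spleen and RARα403 liver ILC1s, where mean Cd200r2 was 44.4-fold lower in the spleen, with no overlap. That value too is a description, and it was 21.8-fold without RARα403 liver library 2 and 392-fold without RARα403 spleen library 2. Cd200r1 was 2.69-fold lower and Cd200r4 1.15-fold lower in the spleen (log2 ratio -0.63 to 0.04 with single libraries left out), and both overlapped. The Cd200r1 fold was 1.43 without liver library 2 and 5.43 with libraries 2 and 3 alone.

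Between control spleen and control liver ILC1s, a comparison the choice of genes had not used, the means of all 3 members were lower in the spleen and none passed the test. The log2 fold changes were -0.81 (SE 1.07) for Cd200r1, -1.16 (SE 1.08) for Cd200r2 and -0.90 (SE 0.37) for Cd200r4, each with an adjusted p of 1 by edgeR. The spleen libraries of Cd200r4 lay below all liver libraries (unadjusted p = 0.0264), as did 4.15% of tested genes, while the other members overlapped. Spleen control library 1 had the most Cd200r1 and Cd200r2 of its group and the least NK markers, at 131 CPM against 876 and 439.7. Without it the log2 fold changes of Cd200r1 and Cd200r2 were -1.74 and -2.001, and without control liver library 3 they were -0.22 and -0.73. No gene (0%) was called here by edgeR (468 at an unadjusted p under 0.05), while DESeq2 called 26 and limma-voom 0. This comparison shares the control liver libraries with that of RARα403 and control liver ILC1s.

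Set against each other per kilobase of exon, Cd200r1 and Cd200r2 kept to a ratio between 0.746 and 1.78 in 9 of the ILC1 libraries. The ratio of Cd200r2 to Cd200r1 was 1.78, 1.61 and 1.39 in control liver ILC1 libraries 1, 2 and 3, and 0.746, 1.42 and 1.45 in the RARα403 ones. It was 1.15, 1.67 and 1.03 in control spleen ILC1s and 0, 0.213 and 0.0691 in RARα403 spleen ILC1s. The last group therefore lay below all 9 other ILC1 libraries, which describes again the values used in the choice. In RARα403 spleen ILC1s Cd200r1 counts were still 425, 260 and 83 where Cd200r2 counts were 0, 29 and 3.

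The make-up of the family per kilobase of exon differed accordingly. Cd200r4 held 39.2 ± 4.3% of the summed level in control liver ILC1s, 49.9 ± 25.0% in RARα403 liver ILC1s, 44.7 ± 13.7% in control spleen ILC1s and 80.4 ± 8.8% in RARα403 spleen ILC1s (SD, n = 3). In NK cells its share was 97.5% in control library 2 and 100% in the other 5 libraries. The wide spread in RARα403 liver ILC1s came from library 1, with 78.3% against 31.1% and 40.3%, and the 3 spleen RARα403 shares, from 72.5 to 89.9%, lay above all control ILC1 shares. The order of the members within a cell depended on the length used. In control liver ILC1s Cd200r1 was the lowest at 65.2 CPM per kilobase over the union of exons (3348 bases) and the highest at 115 over the longest coding transcript (1892 bases), with Cd200r2 at 99.5 and Cd200r4 at 100.4 and 102 on those scales, all within their SDs.

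**Figure D2:**
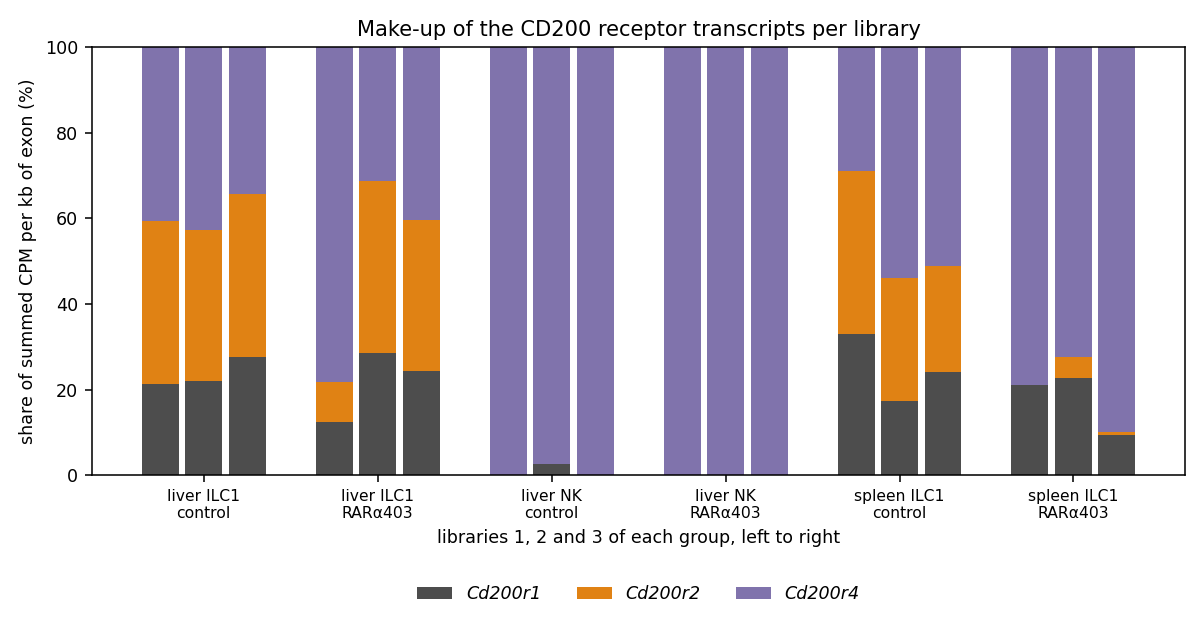
Share of Cd200r1, Cd200r2 and Cd200r4 in their summed CPM per kilobase of exon, in percent, for each library of the 6 groups, with libraries 1, 2 and 3 from left to right. NK libraries consist of Cd200r4 alone but for 1, control liver ILC1 libraries hold 34.4 to 42.6% Cd200r4, and Cd200r2 is a thin band or missing in RARα403 spleen ILC1s.

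The other genes of the pathway were taken from a list of 16: the ligand, the remaining receptor, and adaptors and kinases of both receptor types. All 16 were tested, and in each of the comparisons above 0 were higher and 0 lower by edgeR. Lat2 came near the threshold in RARα403 liver ILC1s against NK cells (log2 fold change -1.13, SE 0.24, edgeR adjusted p = 0.0512). In control cells it had -0.59 (adjusted p = 0.524). Their median log2 fold change was -0.17 for RARα403 against control in liver ILC1s, 0.10 in NK cells and -0.19 in spleen ILC1s, beside 0.00 over all genes in each. The corresponding medians were 0.09 for control and -0.31 for RARα403 liver ILC1s against NK cells, beside 0.03 and 0.07 over all genes, and -0.15 for control spleen against liver ILC1s, beside 0.03.

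The ligand gene Cd200 had at most 22 counts in any liver library. In the spleen it had 40, 0 and 116 counts in control and 64, 0 and 9 in RARα403 ILC1s. The highest of these, control library 3, also had the most B cell marker transcripts, 1335 CPM over 4 genes against at most 241 elsewhere. Cd200r3, the receptor known from basophils and mast cells, had 0 to 24 counts and was the 1 family member near the floor in all groups. Its liver ILC1 libraries had 0, 16 and 15 counts in control and 14, 24 and 12 with RARα403, and it had 6 counts in 1 NK library and 0 in the other 5.

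The signalling genes downstream of the receptors were present in both cell types. Dok2, the adaptor of CD200R1, had group means of 9.05 to 9.83 log2 CPM, and Tyrobp, which encodes DAP12, had 9.09 to 9.78. Means of Inpp5d, which encodes the phosphatase SHIP-1, ran from 8.23 to 9.22, and those of Rasa1, which encodes RasGAP, from 6.96 to 7.47. The NK libraries, with few or no Cd200r1 and Cd200r2 counts, thus held Dok2 and Tyrobp transcripts.

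Between liver ILC1s and NK cells, Dok1 had log2 differences of 0.88 in control and 1.49 in RARα403 cells, and Syk, a kinase downstream of DAP12, had -1.01 and -2.11 (edgeR adjusted p of 0.513 and above for Dok1, 0.746 and 0.187 for Syk). Zap70, the related kinase, had 0.64 and -0.08, and Hcst, which encodes the adaptor DAP10, had 0.39 and 0.23. Liver NK RARα403 library 1, which stood apart, held the highest Syk, Inpp5d, Dok2 and Zap70 of all libraries and 0 counts of Dok1.

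**Figure D3:**
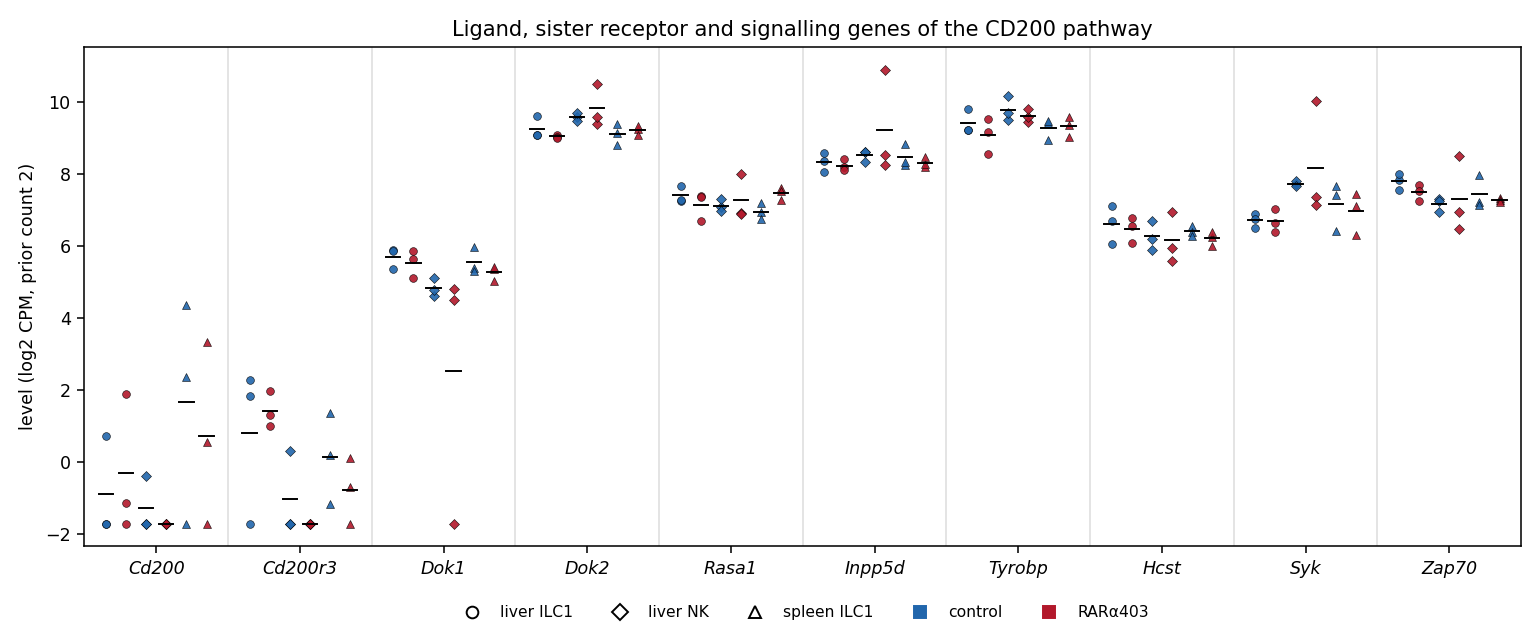
Level in log2 CPM (prior count 2) of the ligand Cd200, the receptor Cd200r3 and 8 signalling genes in each library, with circles for liver ILC1s, diamonds for liver NK cells, triangles for spleen ILC1s, blue for control, red for RARα403 and a line at each group mean. Cd200 and Cd200r3 lie near the bottom, and the signalling genes are present in all groups apart from 1 red diamond of Dok1.

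Around the cluster, 7 other protein-coding genes lie within 250 kb of a member, of which 6 passed the filter and 0 were called by edgeR in any of the comparisons. Next to the members are Cd200r3 on one side and Gtpbp8, which encodes a GTP-binding protein, on the other. Gtpbp8 had means of 3.76 ± 1.00 and 4.64 ± 0.39 log2 CPM in control and RARα403 liver ILC1s (SD, n = 3). In NK cells the means were 3.77 ± 0.55 and 1.29 ± 2.65, and in spleen ILC1s 3.96 ± 0.14 and 4.42 ± 0.90. In spleen ILC1s, where Cd200r2 was lower with RARα403, Gtpbp8 differed by 0.64 (SE 0.93, edgeR adjusted p = 1) and Cd200r3 by -1.52 (SE 1.98, adjusted p = 1). The low mean of RARα403 NK cells went with library 1, at 0 counts.

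**Figure D4:**
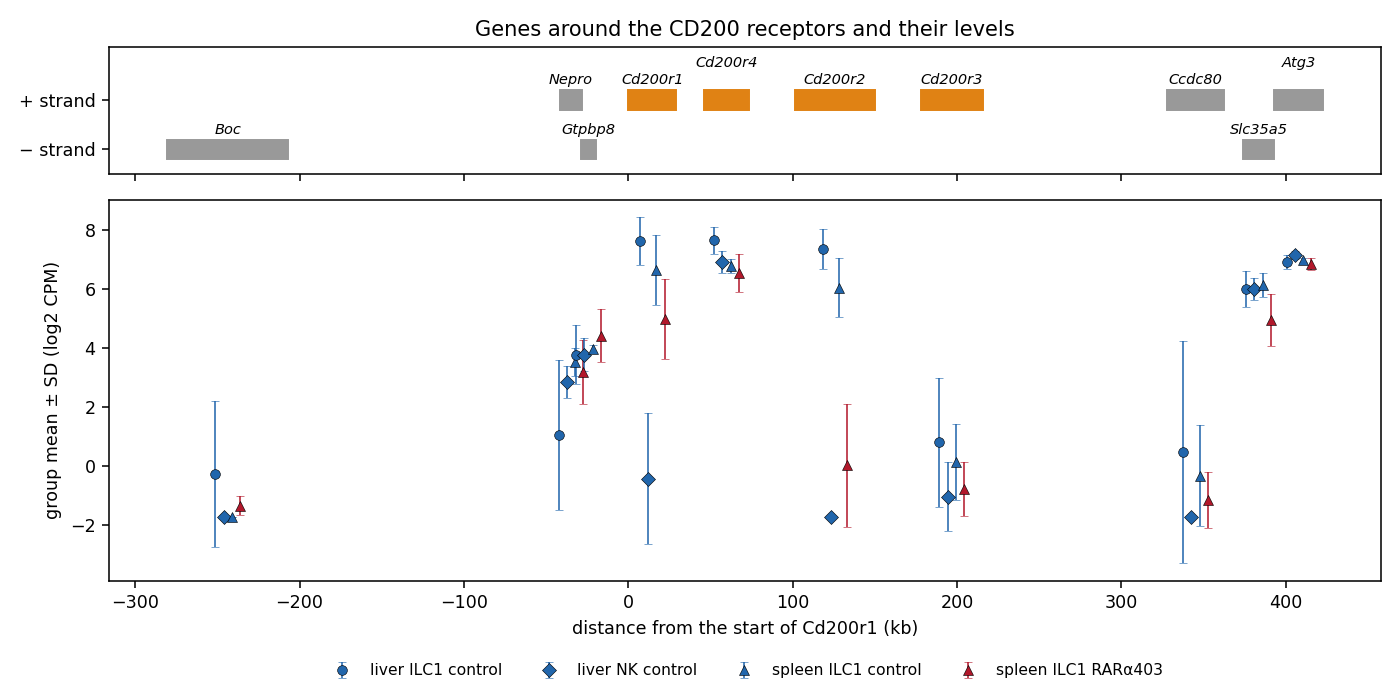
Top, protein-coding genes within 250 kb of the CD200 receptors by distance from the start of Cd200r1 in kb, with the receptor genes in orange and strands on separate rows. Bottom, group mean and SD in log2 CPM at each gene for control NK cells, control ILC1s of liver and of spleen and RARα403 spleen ILC1s, with the points of a gene set side by side. Cd200r1 and Cd200r2 differ between control ILC1s and control NK cells, and Cd200r2 is low in RARα403 spleen ILC1s as well. Cd200r4, which lies between those genes, overlaps between the ILC1 groups and NK cells.

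By the root mean square difference of log2 CPM profiles over the 18 libraries, each centred on its own mean, the genes most like Cd200r1 among 9301 were Gpr34, a receptor for lysophosphatidylserine (0.93), Adgrg3, an adhesion receptor (1.14), P2rx7, an ATP-gated channel (1.18), Tmem176a, a membrane protein (1.21), and Sept8, a septin (1.26). For Cd200r2 they were P2rx7 (1.84), Eng, which encodes endoglin (1.88), Cd63, a tetraspanin (1.90), Adgrg3 (1.94) and Mmp9, a gelatinase (1.97). Cd200r1 and Cd200r2 differed from each other by 2.02, which put Cd200r2 in place 32 for Cd200r1 and Cd200r1 in place 7 for Cd200r2. Without liver NK RARα403 library 1, 3 of the 5 genes named for Cd200r1 and all 5 for Cd200r2 were named again.

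For the genes nearest to Cd200r2, spleen ILC1 means in log2 CPM are given for control and then RARα403 cells (SD, n = 3). They were 5.97 ± 1.33 and 1.61 ± 3.10 for Mmp9, 4.97 ± 1.15 and 2.96 ± 1.11 for Cd63 and 3.33 ± 1.51 and 0.54 ± 1.94 for Eng. P2rx7 and Adgrg3, named for Cd200r1 as well, had 5.42 ± 1.19 and 3.65 ± 0.68, and 4.81 ± 0.75 and 3.77 ± 1.44. The profiles used for naming include the RARα403 spleen libraries, so lower means there are partly built in. Gpr34, the nearest to Cd200r1, stood at 6.15 ± 0.37 and 6.41 ± 0.55. The genes nearest to Cd200r4 were Itgav, the integrin αV chain (0.32), Acot7, an acyl-CoA thioesterase (0.34), Dgkd, a diacylglycerol kinase (0.35), Ubl5, a ubiquitin-like protein (0.36), and Rnaset2a, a ribonuclease (0.37), of which 2 were named again without that library. The likeness values are descriptions of profiles that share libraries and depth.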

How the data were processed

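Gene counts as whole numbers were deposited by the authors for 18 libraries. The submitters' processing notes name fastp 0.23.0, HISAT2 2.1.0, featureCounts (Subread 1.6.5) and mm10, without their order or settings. The annotation release, strand and multi-mapping settings were not stated in the sources. The table's 46078 genes include 849 without a symbol in GENCODE (0.0544% of counts), and 0 columns lacked a sample. With edgeR 4.0.16 (R 4.3.3), filterByExpr (minimum count 10) kept 14714 genes. TMM scaling and a quasi-likelihood fit of 6 group means to all libraries followed, and p-values were adjusted per comparison by Benjamini-Hochberg with a threshold of 0.05. Levels are CPM and log2 CPM (prior count 2). The common biological coefficient of variation was 0.862. Folds of means use a floor of 3 counts per library where a group had none. Members, gene lists, tests and naming rules were chosen with earlier results of these data known. Named are the members, 10 genes of the pathway list and Lat2, the genes next to a member and the 5 most alike. Counts were simulated for RARα403 liver ILC1s against NK cells (14714 genes, 100 changed at each size). Of the changed genes, 14 changed 4-fold and 50 changed 16-fold were recovered, with 5 false among 69 calls. Only RARα403 liver ILC1s were changed, and no gene was set absent from a cell type. The simulation thus does not show how the test treats Cd200r1 or Cd200r2. Alternatives were DESeq2 1.42.0, limma-voom 3.58.1 with quality weights, RLE scaling, no filter, only the groups compared, replicate and code terms, and libraries left out.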

Additional observations from a re-analysis of the deposited data

How the results depend on the processing

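Numbers of genes called depended on the tool and the filter. In liver ILC1s, NK cells and spleen ILC1s, RARα403 against control gave 33, 153 and 20 genes with DESeq2, 43, 523 and 32 without a filter and 1, 2 and 1 with libraries 2 and 3 only, and 1 in NK cells without liver NK RARα403 library 1, against 0 each. Control liver ILC1s against NK cells gave 419 with DESeq2, 355 without a filter, 479 with limma-voom, 290 without that library, 221 with libraries 2 and 3 only and 343 with only the groups compared, against 89. RARα403 liver ILC1s against NK cells gave 554, 794, 217, 162 (libraries 2 and 3) and 0 (only the groups compared), against 59. Control spleen against liver ILC1s gave 26 with DESeq2 and 78 without a filter, against 0. In RARα403 liver ILC1s against NK cells, the log2 fold changes of Cd200r1 and Cd200r2 missed the threshold at 10.33 and 9.72 with limma-voom and at 12.45 and 11.96 with only the groups compared, and Cd200r2 at 11.88 with the leading code number of the descriptions as a term. Without a filter, Cd200r1 passed in NK cells (-6.29, adjusted p = 4.29e-06) and for the difference of the RARα403 effects (5.28, adjusted p = 0.00798). A fit of only the groups compared gave no value for Cd200r1 in NK cells, where it failed the filter, and was not made for that difference. The cause was not tested.

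With the replicate number as a block (replicate block), that RARα403 comparison called 34 genes, and Cd200r1 (12.45, adjusted p = 0.0527) and Cd200r2 (11.90, adjusted p = 0.0790) missed the threshold. The labels do not say whether same-numbered libraries share animals, and such libraries were not all correlated above 0.1 in any comparison. In comparisons within a genotype every library correlated best with its own number, and in those between genotypes only library 1 did. The first is a hint from the data that libraries of a genotype may be matched. The block used the number across both genotypes. No pairing within a genotype was fitted, and the main tests assumed none. The block changed no other member's call.

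With single libraries left out, calls ranged from 0 to 1 in liver ILC1s, 0 to 2 in NK cells and 0 to 0 in spleen ILC1s for RARα403 against control, from 18 to 55 and 18 to 254 for ILC1s against NK cells in control and RARα403, and from 0 to 1 between organs. The log2 fold changes between RARα403 liver ILC1s and NK cells ranged from 11.53 to 12.89 for Cd200r1, 10.93 to 12.47 for Cd200r2 and -0.084 to 0.31 for Cd200r4, which turned sign without ILC1 library 2 (-0.06) or NK library 3 (-0.084). In NK cells Cd200r4 ranged from -0.43 to 0.0047, the latter without control library 3, and Cd200r1 from -6.83 to 0. The Cd200r1 difference of effects ranged from -1.03, without control NK library 2, to 5.88. Depth limits values near the floor: a gene without counts stood at -3.70 log2 CPM with a prior count of 0.5.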
